A study of Homo sapiens with 12 samples.

Results

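The genes described here are 48 genes of mitosis and the spindle, taken by name from the 18852 genes that the arrays could name and test. For each gene the brightest probe, by its mean over all arrays, gave the value. All 48 genes had a probe. HD-MyZ, an established human cell line of Hodgkin lymphoma, was treated for 24 hours with 10 µM perifosine plus 5 µM sorafenib (combination), with 5 µM sorafenib alone, with 10 µM perifosine alone, or with neither (control). Each of the 4 groups had 3 arrays, named A, B and C, which makes 12 Illumina beadchip arrays. Perifosine, a synthetic alkylphospholipid, blocks the recruitment of AKT to membranes, and sorafenib blocks RAF kinases and growth factor receptors such as those for VEGF and PDGF. The labels do not say what the control cells received, or that the replicates were separate cultures. P-values therefore measure only the spread between these arrays, and the study used a single cell line.

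Mitosis is driven by CDK1, a kinase that is active only when bound to cyclin A or cyclin B and when CDC25 phosphatases have removed its inhibitory phosphates. Aurora and Polo-like kinases, kinesin motors and kinetochore proteins then build the spindle and attach it to the chromosomes. The spindle checkpoint holds the cell there until CDC20 activates the anaphase-promoting complex, which destroys cyclin B and securin. Most of these genes are transcribed in G2 and M phase, when the DREAM repressor is replaced by the activator complex of MYB and FOXM1. Their promoters are known for a cell cycle genes homology region (CHR) and for CCAAT boxes. CDC25A differs from most of them, since it is also an E2F target that acts at the entry to S phase.

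The promoters, from 250 bases before to 50 bases after the start site, were found in RefSeq (build GRCh38.p14) for 40 of the 48 genes. Both strands were searched for the CHR letters TTTGAA or TTCGAA and for the letters CCAAT. A CHR match lay in 30 of the 40 promoters (75%), against 14% of the 14873 tested genes with a promoter and 16.4% of all 35116 promoters searched. A CCAAT match lay in 32 (80%), against 36.3% and 34.6%. Both lay in 25 (62.5%), against 5.84% and 6.38%. No promoter of AURKA, BUB3, CENPM, FOXM1, RACGAP1, TPX2, TTK or UBE2C was used. A match in the letters is a description and does not show that a factor binds there. The 4 promoters below belong to the genes that the comparisons turn on, and capitals mark the matches, which read TTCAAA or ATTGG where the match is on the opposite strand. The CDC25A promoter (chr3:48188368-48188667, minus strand) has no CHR match and 2 opposite CCAAT matches, with first bases at -110 and -58 from the start site. The CDC20 promoter (chr1:43358731-43359030, plus strand) has TTTGAA at -65, its opposite at -178, and CCAAT at -100 and -55. The TOP2A promoter (chr17:40417847-40418146, minus strand) has TTTGAA at -194, its opposite at -151, and 4 opposite CCAAT matches. The CENPF promoter (chr1:214602945-214603244, plus strand) has TTTGAA at 41 after the start site and 4 CCAAT matches, 2 on each strand.
CDC25A: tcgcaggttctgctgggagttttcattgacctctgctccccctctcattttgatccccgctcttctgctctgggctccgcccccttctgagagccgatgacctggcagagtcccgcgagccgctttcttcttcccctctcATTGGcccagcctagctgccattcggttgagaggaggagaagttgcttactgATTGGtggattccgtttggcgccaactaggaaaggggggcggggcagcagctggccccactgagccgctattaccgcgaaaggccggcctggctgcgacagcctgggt
CDC20: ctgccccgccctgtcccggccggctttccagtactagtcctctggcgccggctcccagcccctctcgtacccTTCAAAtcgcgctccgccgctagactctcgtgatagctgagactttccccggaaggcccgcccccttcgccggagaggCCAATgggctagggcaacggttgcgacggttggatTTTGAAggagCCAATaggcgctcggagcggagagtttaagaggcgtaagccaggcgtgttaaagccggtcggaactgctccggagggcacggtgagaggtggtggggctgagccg
TOP2A: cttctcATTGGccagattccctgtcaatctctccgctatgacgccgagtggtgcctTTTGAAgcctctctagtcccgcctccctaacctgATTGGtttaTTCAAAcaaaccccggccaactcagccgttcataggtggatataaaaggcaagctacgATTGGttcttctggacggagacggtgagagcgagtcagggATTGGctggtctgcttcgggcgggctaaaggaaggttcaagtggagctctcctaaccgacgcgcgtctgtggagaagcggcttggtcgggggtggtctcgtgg
CENPF: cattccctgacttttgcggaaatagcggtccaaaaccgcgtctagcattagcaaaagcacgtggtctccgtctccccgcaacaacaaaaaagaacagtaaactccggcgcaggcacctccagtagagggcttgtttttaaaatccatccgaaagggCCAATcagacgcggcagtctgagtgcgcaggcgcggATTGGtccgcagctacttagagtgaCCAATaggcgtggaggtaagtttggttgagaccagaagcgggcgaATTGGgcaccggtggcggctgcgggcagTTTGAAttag

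Values are fluorescence intensities on a linear scale, as deposited, and changes are differences of mean log2 intensity from limma. A change was called where its p-value, adjusted by Benjamini-Hochberg over all 18852 genes, was under 0.05. The number of arrays limits the precision. Over all probes the intensities had a median of 322 and extremes of 170 and 71906. This floor points to a background that was not subtracted. All 48 genes lay far above that background, with every value between 1430 and 54551. Among the line's markers, TNFRSF8 (CD30) and CCL17, which define Hodgkin cells, lay at group means of 249 to 286, which is close to the background. FSCN1, another Hodgkin marker, lay at 54049 to 59131. The B cell markers MS4A1, CD79A, CD79B and PAX5 and the 5 T cell markers lay at group means of 224 to 456. COL1A2, a collagen gene of fibroblasts, lay at 52353 ± 7216 in the combination arrays, 52761 ± 10410 in the sorafenib arrays, 21636 ± 1570 in the perifosine arrays and 24340 ± 5237 in the control arrays (SD, n = 3 each), while COL3A1 and LUM stayed at group means of 251 to 338. Whether these marker levels bear on the results below was not tested.

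Of the 12 arrays, 3 stood apart from their group mates over all genes: combination A, sorafenib B and control C. Their mean correlation with the other arrays of their group was 0.9847, 0.9633 and 0.9853, the lowest in each of these groups. The mitosis genes stood apart there too. In sorafenib B, 32 of the 48 lay above both mates and 14 below both, against 42.5% and 38.2% of all genes tested. In combination A the counts were 33 above and 10 below, against 41.9% and 33.7%, and in control C 27 above and 15 below, against 39.6% and 35.8%. The median distance of the 48 from the mean of the mates was 0.68 on the log2 scale in sorafenib B and 0.17 each in combination A and control C, against 0.01 to 0.02 for all genes. In these same 3 arrays, 23 genes of oxidative phosphorylation lay below their mates by a median log2 of -1.35 in combination A, -1.37 in sorafenib B and -1.40 in control C. For 6 metallothionein genes the medians were -1.55, -1.66 and -1.78 in the same order of arrays. The labels name no batch, and the part of this pattern in the results was not tested, so the calls, the medians and the values that moved most are also given without all 3. This way of leaving arrays out was chosen with their values known.

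The comparison of sorafenib with control asks what sorafenib alone changed. CDC25A, the phosphatase that activates CDK1 and CDK2, and CDC20, the activator of the anaphase-promoting complex, fell, and none of the 48 rose. The 2 called genes compare with 0.928% of all genes called lower, 1.33% called higher and 2.25% called in either direction. All 48 averaged a log2 intensity of 9 or more. In a fit of only the 9587 genes this bright, the same 2 were called, against 4.11% of these brighter genes. The changes of the 48 ran from -1.02 to 0.69 with a median of 0.11, against 0.00 for all genes, and 20 lay below 0 and 28 above. Without sorafenib B alone the median was -0.02, with 27 below 0 and 21 above, and without the 3 arrays that stood apart it was -0.00, with 24 on either side. Without sorafenib A or sorafenib C alone it was 0.23 or 0.24. With the combination, CDC25A alone fell, against 0.7% of all genes called lower, 1.12% called higher and 1.82% called in either direction. In the fit of the 9587 brighter genes CDC25A was again the single call, against 3.02% of them. With the combination the median of the 48 was 0.05, with 19 below 0 and 29 above, or 0.01 without the 3 arrays, with 23 below and 25 above. With perifosine alone none of the 48 was called, against 0.297% of all genes, yet 41 of the 48 lay below 0, with a median of -0.20 against -0.00 for all genes. Without the 3 arrays 44 lay below 0, with a median of -0.16, and CDC25A was called, against 1.55% of all genes. All changes of the 48 against control were smaller than 2-fold, with the exception of CDC25A with sorafenib and with the combination. The standard error of a change ran from 0.11 to 0.43 over the 48 genes.

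**Figure D1:**
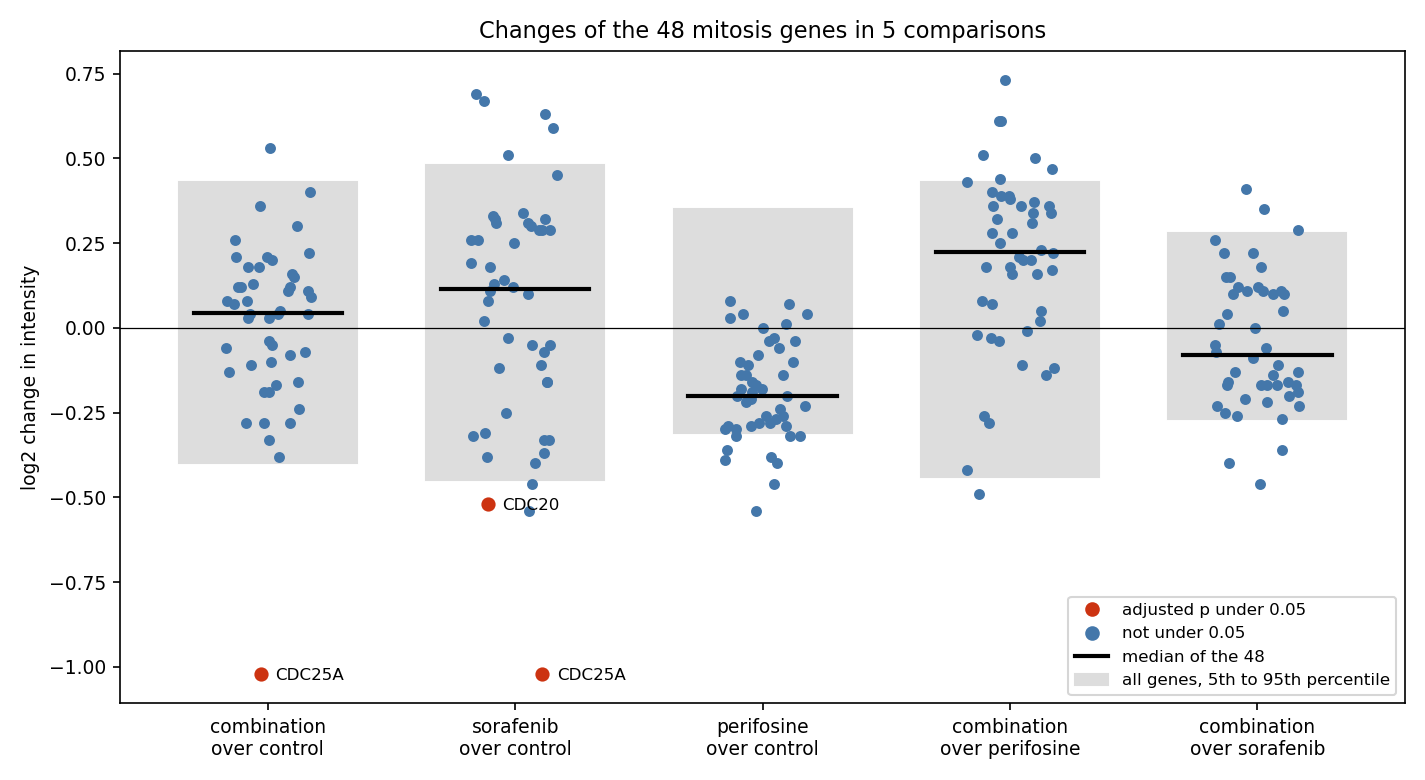
Log2 change in intensity (vertical axis) of each of the 48 mitosis genes (points) in 5 comparisons (horizontal axis). Black lines are medians of the 48, grey bars span the 5th to the 95th percentile of all genes tested, and red points passed an adjusted p of 0.05. CDC25A passed with the combination and with sorafenib at -1.02 each, CDC20 passed with sorafenib at -0.52, and the perifosine points lie mostly below 0 with a median of -0.20.

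Among the genes of the CDK1 switch, CDC25A measured 1742, 2475 and 1863 in the combination arrays, 2172, 1738 and 2139 in the sorafenib arrays, 3009, 2668 and 2750 in the perifosine arrays, and 4176, 4457 and 3624 in the control arrays. Every treated array lay below every control array, and the perifosine arrays lay between the control arrays and the other treated arrays. The log2 change was -1.02 (SE 0.15, adjusted p = 0.00624) with the combination, -1.02 (SE 0.15, adjusted p = 0.00608) with sorafenib and -0.54 (SE 0.15, adjusted p = 0.263) with perifosine. Without the 3 arrays that stood apart, the values were -1.01 (SE 0.14, adjusted p = 0.00193), -1.0 (SE 0.14, adjusted p = 0.00273) and -0.62 (SE 0.13, adjusted p = 0.0315), so that the perifosine change then passed the threshold. With only the sorafenib and control arrays in the fit, the sorafenib change did not pass (adjusted p = 0.0895). A dimmer probe of CDC25A gave -1.18 with the combination, -1.11 with sorafenib and -0.75 with perifosine, with adjusted p = 0.00136, 0.00196 and 0.0385 over all 28098 named probes. In RNA from bulk cultures, fewer cells in a phase of the cycle and less RNA per cell cannot be told apart.

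The other members of the switch had smaller changes, and none was called. CDK1, the kinase itself, measured 20230, 13009 and 13596 in the combination arrays, 12700, 13766 and 12840 in the sorafenib arrays, 13279, 11673 and 10685 in the perifosine arrays, and 12655, 12718 and 17553 in the control arrays. Combination A and control C were the highest arrays, and all 4 groups overlapped. CCNB1, its cyclin B partner, measured 10685, 7963 and 8728 in the combination arrays, 7276, 10155 and 8012 in the sorafenib arrays, 6634, 7647 and 5193 in the perifosine arrays, and 9204, 7759 and 9619 in the control arrays. All 3 perifosine arrays lay below all control arrays and below all combination arrays, and the change with perifosine was -0.46 (SE 0.18, adjusted p = 0.553). CCNB2, the second cyclin B, measured 21786, 18013 and 23160 in the combination arrays, 18180, 15519 and 18593 in the sorafenib arrays, 15783, 16458 and 15313 in the perifosine arrays, and 17881, 16484 and 19951 in the control arrays. The perifosine arrays again lay below the control and the combination arrays. CCNA2, cyclin A, measured 21119, 13627 and 15006 in the combination arrays, 16586, 25182 and 16076 in the sorafenib arrays, 16039, 14938 and 12474 in the perifosine arrays, and 15483, 15706 and 26250 in the control arrays, with control C and sorafenib B the highest. CDC25B, the phosphatase that starts CDK1 activation, measured 23978, 27529 and 23060 in the combination arrays, 19989, 23222 and 20715 in the sorafenib arrays, 20261, 19383 and 18975 in the perifosine arrays, and 19636, 22222 and 18654 in the control arrays. Its combination arrays lay above all perifosine and control arrays, with a change against control of 0.30 (SE 0.11, adjusted p = 0.234). CDC25C, the CDC25 phosphatase of late G2, measured 5095, 3488 and 4122 in the combination arrays, 4152, 3984 and 3627 in the sorafenib arrays, 3279, 3152 and 3176 in the perifosine arrays, and 2929, 3225 and 3667 in the control arrays, and its combination change was 0.36 (SE 0.14, adjusted p = 0.271). Its dimmer probes gave 0.12 and 0.02 for that change. CKS1B and CKS2, small subunits bound by CDKs, lay lower in the arrays that stood apart. CKS1B measured 25032, 40824 and 37846 in the combination arrays, 35561, 14920 and 40051 in the sorafenib arrays, 44759, 32471 and 34041 in the perifosine arrays, and 39523, 44925 and 31310 in the control arrays. CKS2 measured 24457, 41557 and 36440 in the combination arrays, 36350, 19886 and 41477 in the sorafenib arrays, 38921, 41655 and 41245 in the perifosine arrays, and 48470, 48095 and 28465 in the control arrays. In both genes combination A, sorafenib B and control C were the lowest array of their groups.

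Among the mitotic kinases none was called in any comparison. PLK1, the Polo-like kinase of mitotic entry and spindle assembly, measured 3039, 2897 and 2736 in the combination arrays, 2974, 2855 and 2563 in the sorafenib arrays, 3174, 2884 and 2767 in the perifosine arrays, and 4043, 3287 and 3260 in the control arrays. All 9 treated arrays lay below all 3 control arrays, with changes of -0.28 (SE 0.11, adjusted p = 0.301) with the combination, -0.33 (SE 0.11, adjusted p = 0.168) with sorafenib and -0.26 (SE 0.11, adjusted p = 0.66) with perifosine. AURKA, the Aurora kinase of centrosomes and spindle poles, measured 29593, 22282 and 20956 in the combination arrays, 22014, 27130 and 18346 in the sorafenib arrays, 21176, 21259 and 17189 in the perifosine arrays, and 24798, 21325 and 28696 in the control arrays. The perifosine arrays lay below the control arrays and the other groups overlapped with control. NEK2, a kinase of centrosome separation, measured 8422, 6808 and 6505 in the combination arrays, 6235, 11399 and 6835 in the sorafenib arrays, 5381, 5221 and 4950 in the perifosine arrays, and 6865, 6037 and 6130 in the control arrays, and its perifosine arrays lay below all others. AURKB, the kinase of the chromosomal passenger complex, measured 8737, 9001 and 10919 in the combination arrays, 11971, 5511 and 10447 in the sorafenib arrays, 8980, 9794 and 8825 in the perifosine arrays, and 11134, 11101 and 7857 in the control arrays. Sorafenib B and control C were its lowest arrays, and every treated group overlapped with control. PLK4, the kinase of centriole duplication, measured 7636, 6077 and 5427 in the combination arrays, 5835, 11611 and 5832 in the sorafenib arrays, 5601, 5123 and 5787 in the perifosine arrays, and 5781, 6226 and 8633 in the control arrays. Sorafenib B was the highest array, and all groups overlapped with control.

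Of the spindle checkpoint genes, MAD2L1, a subunit of the inhibitor of CDC20, measured 15650, 13167 and 13054 in the combination arrays, 14530, 11478 and 12595 in the sorafenib arrays, 14911, 14826 and 11766 in the perifosine arrays, and 14963, 16029 and 20243 in the control arrays. All sorafenib and all perifosine arrays lay below all control arrays, with changes of -0.40 (SE 0.15, adjusted p = 0.208) and -0.30 (SE 0.15, adjusted p = 0.749). BUB1, a checkpoint kinase at the kinetochore, measured 14847, 11575 and 12768 in the combination arrays, 12586, 21067 and 12449 in the sorafenib arrays, 12902, 12418 and 11490 in the perifosine arrays, and 12277, 12557 and 10912 in the control arrays. The groups overlapped, and sorafenib B was the highest array. TTK (MPS1), the kinase that starts checkpoint signalling, measured 12184, 9253 and 8547 in the combination arrays, 9717, 21579 and 9762 in the sorafenib arrays, 8836, 7078 and 6126 in the perifosine arrays, and 7134, 7737 and 10076 in the control arrays. Sorafenib B lay at over 2 times its mates, and the sorafenib change of 0.63 (SE 0.28, adjusted p = 0.33) was 0.39 (SE 0.15, adjusted p = 0.188) without the 3 arrays. BUB1B (BUBR1), a subunit of the inhibitor of CDC20, measured 2100, 2485 and 2294 in the combination arrays, 1898, 4050 and 1948 in the sorafenib arrays, 1912, 2170 and 1718 in the perifosine arrays, and 2287, 1624 and 2355 in the control arrays. Sorafenib B was about 2 times its mates, and the groups overlapped. BUB3, which anchors BUB1 at the kinetochore, had 4 probes, which did not all go the same way with sorafenib. Its brightest probe gave a log2 change of 0.10 with sorafenib, and dimmer probes gave 0.21 and 0.09. The remaining dimmer probe measured 1925, 1410 and 2007 in the sorafenib arrays, against 3589, 3547 and 4509 in the control arrays. That probe, singled out after its values were seen, changed by -1.13 (SE 0.17, adjusted p = 0.0086 over all named probes). Which BUB3 transcripts each probe reads was not analysed here.

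Of the genes that open anaphase, CDC20 measured 46633, 42197 and 46008 in the combination arrays, 35511, 31627 and 34345 in the sorafenib arrays, 44511, 38419 and 37921 in the perifosine arrays, and 50973, 43719 and 51344 in the control arrays. All sorafenib arrays lay below every other array of the 12, and combination and perifosine arrays overlapped with control arrays. The change was -0.52 (SE 0.11, adjusted p = 0.0285) with sorafenib, -0.27 (SE 0.11, adjusted p = 0.576) with perifosine and -0.11 (SE 0.11, adjusted p = 0.779) with the combination. Without the 3 arrays that stood apart the sorafenib change was -0.43 (SE 0.13, adjusted p = 0.0785), which did not pass. Leaving out single arrays also ended this call, with values of -0.48 to -0.60: the adjusted p was 0.103 without control A, 0.0522 without control B, 0.0985 without control C, 0.0539 without sorafenib B and 0.0629 without sorafenib C. UBE2C, PTTG1 (securin) and ESPL1 (separase), named here after their values were seen, had no call. UBE2C, the ubiquitin-conjugating enzyme of the anaphase-promoting complex, measured 17140, 32887 and 26512 in the combination arrays, 36041, 9619 and 31818 in the sorafenib arrays, 32231, 29593 and 26821 in the perifosine arrays, and 34688, 31149 and 20374 in the control arrays. Combination A, sorafenib B and control C were the lowest arrays of their groups, and sorafenib B lay -1.82 from its mates on the log2 scale. PTTG1, which holds separase inactive, measured 26498, 48551 and 51344 in the combination arrays, 44925, 19315 and 52150 in the sorafenib arrays, 43905, 44759 and 44759 in the perifosine arrays, and 46822, 54551 and 33565 in the control arrays. ESPL1, the protease that cuts cohesin, measured 1430, 2297 and 1881 in the combination arrays, 2109, 1642 and 1978 in the sorafenib arrays, 2092, 1881 and 1974 in the perifosine arrays, and 2193, 1951 and 1695 in the control arrays. Both genes had the same 3 arrays lowest in their groups, and the groups overlapped.

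**Figure D2:**
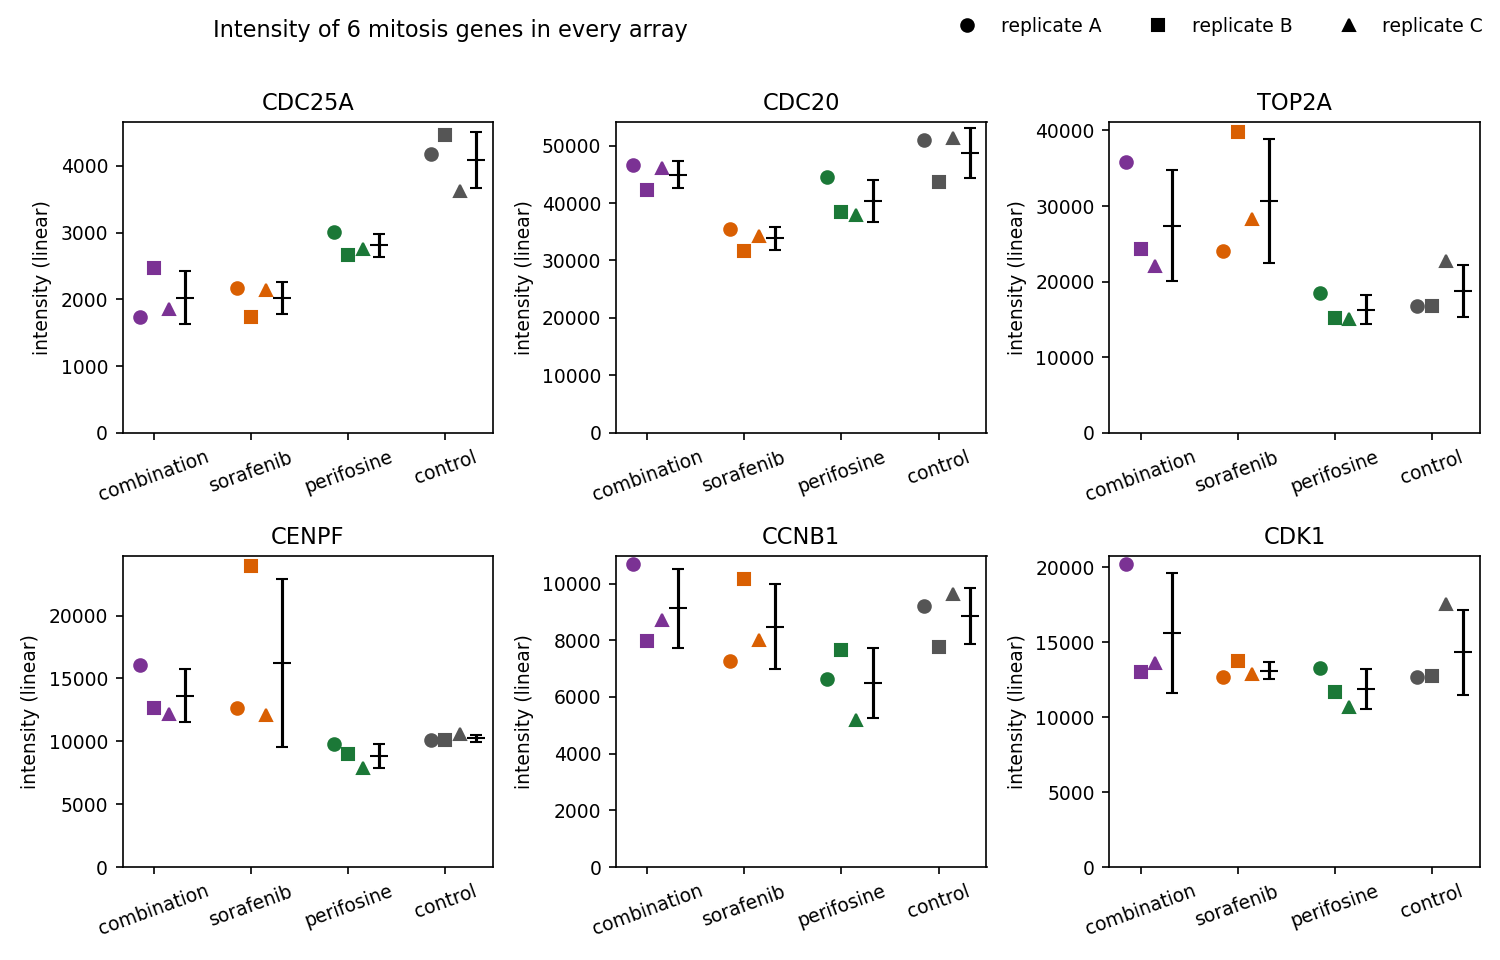
Intensity on a linear scale (vertical axis, from 0) of 6 genes in the 3 arrays of each group (horizontal axis). Circles, squares and triangles are replicates A, B and C, and black bars are the mean and SD of 3 arrays. CDC25A is below control in all 9 treated arrays, CDC20 is lowest in the 3 sorafenib arrays, and TOP2A and CENPF are above control in all 3 sorafenib arrays, with sorafenib B the highest.

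The 10 kinesins, the motor proteins of the spindle, all had positive changes with sorafenib, from 0.11 (KIF2C) to 0.67 (KIF18A), and none was called. In every one of the 10, sorafenib B lay above both mates, by a median log2 of 0.87. With the 3 arrays that stood apart left out, KIF2C lay at -0.16, KIF11 at 0.02, CENPE at 0.04, KIF20B at 0.07, KIF4A and KIF20A at 0.08 each, KIF14 at 0.11, KIF15 at 0.20, KIF23 at 0.23 and KIF18A at 0.38, so that each change was then lower and not all were positive. KIF11 (Eg5), which pushes the spindle poles apart, measured 6755, 6357 and 5657 in the combination arrays, 5932, 10594 and 6290 in the sorafenib arrays, 6578, 6699 and 5589 in the perifosine arrays, and 5995, 6041 and 5720 in the control arrays, and sorafenib B alone stood out. CENPE, which carries chromosomes to the spindle equator, measured 6665, 5995 and 6031 in the combination arrays, 5627, 10294 and 5955 in the sorafenib arrays, 6093, 5514 and 4715 in the perifosine arrays, and 5559, 5717 and 5859 in the control arrays. The combination arrays of CENPE lay just above the control arrays, with a change of 0.12 (SE 0.19, adjusted p = 0.884). KIF18A, which shortens kinetochore microtubules, measured 3431, 2208 and 2734 in the combination arrays, 2593, 6047 and 3407 in the sorafenib arrays, 2188, 1730 and 1538 in the perifosine arrays, and 2037, 2566 and 2560 in the control arrays. The sorafenib arrays lay above the control arrays, with a change of 0.67 (SE 0.27, adjusted p = 0.27), or 0.38 (SE 0.19, adjusted p = 0.324) without the 3 arrays. KIF15, another motor of spindle bipolarity, measured 4708, 4075 and 3544 in the combination arrays, 4044, 7522 and 3891 in the sorafenib arrays, 3323, 3751 and 2595 in the perifosine arrays, and 3580, 3323 and 3911 in the control arrays. KIF23, a motor of the central spindle, measured 5870, 5574 and 5497 in the combination arrays, 5322, 13260 and 5859 in the sorafenib arrays, 4948, 5105 and 4536 in the perifosine arrays, and 4658, 4856 and 6300 in the control arrays. KIF20B, a motor of late cytokinesis, measured 13968, 9672 and 11189 in the combination arrays, 9918, 18282 and 9576 in the sorafenib arrays, 8481, 8966 and 6891 in the perifosine arrays, and 8997, 9626 and 10934 in the control arrays. In these 3 genes sorafenib B was the highest of the 12 arrays, and the sorafenib groups overlapped with control. KIF2C (MCAK), which depolymerises microtubules at the centromere, measured 9659, 9450 and 9253 in the combination arrays, 8384, 12294 and 8009 in the sorafenib arrays, 8005, 7217 and 6888 in the perifosine arrays, and 10424, 7989 and 7879 in the control arrays. KIF4A, a motor of chromosome arms and the midzone, measured 8451, 8367 and 7566 in the combination arrays, 7402, 12650 and 7649 in the sorafenib arrays, 6426, 6384 and 6392 in the perifosine arrays, and 7677, 6617 and 6960 in the control arrays. KIF14 and KIF20A, motors of cytokinesis, had no call, and sorafenib B was their highest array, at 8469 and 22320, against highest values of 5357 and 14645 in the control arrays.

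At the kinetochore, CENPF, a large protein of the outer kinetochore, measured 16046, 12622 and 12211 in the combination arrays, 12683, 23909 and 12063 in the sorafenib arrays, 9749, 9007 and 7846 in the perifosine arrays, and 10113, 10076 and 10570 in the control arrays. All combination and all sorafenib arrays lay above all control arrays, and all perifosine arrays lay below them. The changes were 0.40 (SE 0.22, adjusted p = 0.525) with the combination, 0.59 (SE 0.22, adjusted p = 0.217) with sorafenib and -0.21 (SE 0.22, adjusted p = 0.945) with perifosine, and none passed. Without the 3 arrays that stood apart the sorafenib change was 0.29 (SE 0.13, adjusted p = 0.229). SPC25, a subunit of the NDC80 complex that binds microtubules, measured 2538, 3429 and 3438 in the combination arrays, 3803, 1633 and 3504 in the sorafenib arrays, 4485, 4144 and 3896 in the perifosine arrays, and 4354, 4254 and 3589 in the control arrays. The combination arrays lay below the perifosine and the control arrays, while the sorafenib arrays overlapped with control. NUF2, another NDC80 subunit, measured 2340, 1895 and 2654 in the combination arrays, 1749, 3247 and 1622 in the sorafenib arrays, 1878, 1777 and 1588 in the perifosine arrays, and 1907, 1975 and 2717 in the control arrays. Its perifosine arrays lay just below the control arrays. CENPA, the histone that marks the centromere, measured 8972, 8568 and 7522 in the combination arrays, 8152, 4628 and 7336 in the sorafenib arrays, 7285, 6028 and 6750 in the perifosine arrays, and 8432, 7712 and 8278 in the control arrays, with its perifosine arrays below the control and the combination arrays. CENPM, of the constitutive centromere network, measured 3327, 5311 and 4721 in the combination arrays, 6254, 2204 and 5545 in the sorafenib arrays, 4779, 4398 and 4356 in the perifosine arrays, and 6829, 5602 and 4333 in the control arrays. Sorafenib B lay -1.42 from its mates on the log2 scale, and the sorafenib change of -0.37 (SE 0.33, adjusted p = 0.698) was -0.07 (SE 0.13, adjusted p = 0.855) without the 3 arrays.

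For spindle assembly and the midzone, TPX2, which activates AURKA on the spindle, measured 21259, 14291 and 14606 in the combination arrays, 17593, 30081 and 14301 in the sorafenib arrays, 15496, 15753 and 12690 in the perifosine arrays, and 15580, 14250 and 18582 in the control arrays. PRC1, which bundles microtubules at the midzone, measured 23584, 21206 and 22038 in the combination arrays, 22730, 38730 and 21235 in the sorafenib arrays, 24777, 23060 and 20576 in the perifosine arrays, and 24273, 22881 and 23101 in the control arrays. HMMR, a microtubule protein of the spindle poles, measured 29357, 18779 and 19809 in the combination arrays, 17048, 45578 and 16872 in the sorafenib arrays, 20080, 16150 and 13710 in the perifosine arrays, and 18636, 19775 and 26671 in the control arrays. Sorafenib B was the highest array for all 3, and the groups overlapped with control. HMMR had the largest upward distance of any of the 48 genes in sorafenib B, 1.43. DLGAP5, which stabilises kinetochore fibres, measured 8877, 6408 and 6974 in the combination arrays, 6242, 12617 and 6545 in the sorafenib arrays, 7194, 8049 and 5874 in the perifosine arrays, and 7958, 8447 and 9794 in the control arrays. NUSAP1, which bundles microtubules near chromosomes, measured 25182, 19338 and 23766 in the combination arrays, 22090, 33256 and 22358 in the sorafenib arrays, 18860, 18039 and 15234 in the perifosine arrays, and 17396, 18431 and 25668 in the control arrays. Sorafenib B was the highest array of both, and the treated groups overlapped with control. Of the cytokinesis genes, ANLN (anillin), which organises the contractile ring, measured 11080, 7529 and 9588 in the combination arrays, 8111, 18779 and 8499 in the sorafenib arrays, 7933, 7958 and 6640 in the perifosine arrays, and 8586, 8145 and 9615 in the control arrays. ECT2, which activates RhoA at the division plane, measured 16766, 12801 and 15611 in the combination arrays, 10934, 27216 and 15650 in the sorafenib arrays, 12972, 12449 and 13438 in the perifosine arrays, and 13285, 12847 and 18568 in the control arrays. RACGAP1, its partner at the central spindle, measured 12882, 10146 and 10447 in the combination arrays, 10664, 17673 and 10301 in the sorafenib arrays, 10908, 9372 and 9599 in the perifosine arrays, and 10734, 12316 and 11277 in the control arrays. Sorafenib B was again the highest array of the 3 genes, at 17673 to 27216. NUSAP1, ANLN, ECT2 and RACGAP1 had no call, and their changes against control ran from -0.23 (ANLN with perifosine) to 0.33 (NUSAP1 with sorafenib).

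TOP2A, the topoisomerase that untangles sister chromatids, had the largest positive change of the 48 with sorafenib. TOP2A measured 35796, 24313 and 22103 in the combination arrays, 23997, 39796 and 28241 in the sorafenib arrays, 18500, 15234 and 15077 in the perifosine arrays, and 16722, 16785 and 22730 in the control arrays. All sorafenib arrays lay above all control arrays, and the combination arrays overlapped with control through combination C and control C. The changes were 0.53 (SE 0.22, adjusted p = 0.323) with the combination, 0.69 (SE 0.22, adjusted p = 0.136) with sorafenib and -0.20 (SE 0.22, adjusted p = 0.954) with perifosine. Without the 3 arrays that stood apart, the sorafenib change was 0.64 (SE 0.14, adjusted p = 0.0208) and passed, while the combination change was 0.47 (SE 0.14, adjusted p = 0.065). FOXM1, the transcription factor of G2 and M genes, measured 3784, 3834 and 3512 in the combination arrays, 4071, 3086 and 3325 in the sorafenib arrays, 3453, 2946 and 3116 in the perifosine arrays, and 4307, 4415 and 3717 in the control arrays. The perifosine arrays lay below all control arrays and the sorafenib and combination arrays overlapped with control. Its change was -0.16 (SE 0.12, adjusted p = 0.712) with the combination, -0.25 (SE 0.12, adjusted p = 0.368) with sorafenib and -0.39 (SE 0.12, adjusted p = 0.392) with perifosine.

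Against control, the largest perifosine values after CDC25A were CCNB1 at -0.46, KIF18A at -0.40, FOXM1 at -0.39, HMMR at -0.38 and CCNA2 at -0.36. AURKA, DLGAP5 and NUF2 followed at -0.32 each and PLK4 at -0.30, with adjusted p from 0.392 to 0.931 over these 9 genes. CDK1 lay at -0.26, CENPE at -0.08, BUB1 at 0.04 and KIF11, the highest of the 48, at 0.08. A dimmer KIF11 probe gave -0.27. With sorafenib, the largest values that did not pass and are not given above were SPC25 at -0.54, KIF23 at 0.51, CKS1B at -0.46 and KIF15 at 0.45. BUB1 lay at 0.32, KIF11 at 0.31, CENPE at 0.30, AURKA at -0.16, CDK1 at -0.11 and CCNB1 at -0.07. With sorafenib but without the 3 arrays that stood apart, SPC25 lay at -0.24, CKS1B at -0.16, BUB1 at 0.01, CDK1 at 0.01, AURKA at -0.19 and CCNB1 at -0.15. With the combination, SPC25 lay at -0.38, CENPM at -0.33, MAD2L1 and CKS2 at -0.28 each, BUB1 at 0.13, CDK1 at 0.11, KIF11 at 0.08, CCNB1 at 0.04 and AURKA at -0.05. None of these passed.

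Separation of the groups was counted without a test. With perifosine, 15 of the 48 genes had all 3 arrays below all control arrays and 0 had all above, against 9.24% and 8.25% of all genes. Among the 9587 genes whose log2 intensity averaged 9 or more, 1260 lay below and 1018 above in this way. The 15 were CCNB1, CCNB2, CDC25A, AURKA, PLK1, NEK2, MAD2L1, KIF20A, KIF20B, KIF4A, CENPA, CENPF, NUF2, ANLN and FOXM1. With sorafenib the 4 lower genes were CDC20, CDC25A, PLK1 and MAD2L1 and the 3 higher were KIF18A, CENPF and TOP2A, against 8.46% and 9.23%. With the combination the 3 lower were CDC25A, PLK1 and SPC25 and the 3 higher were CDC25B, CENPE and CENPF, against 8.76% and 10.5%. The brighter genes had 1079 lower and 1169 higher with sorafenib, and 1135 lower and 1391 higher with the combination. With perifosine, a dimmer probe overlapped with control for NEK2, MAD2L1, CENPA and NUF2, but not for CDC25A, AURKA and FOXM1. With sorafenib it overlapped for MAD2L1 and KIF18A, with the combination for SPC25 and CENPE, and in neither for CDC25A. The KIF18A probe, close to the background at group means of 271 to 307, gave -0.18 with sorafenib. The CENPE probe gave -0.07 with the combination. These 3 comparisons share the control arrays. Of the 48 genes with perifosine, 5 had an unadjusted p under 0.05 in limma, all of them lower, against 7.15% of all genes, and the smallest adjusted p was 0.263. Of the 9587 brighter genes, 1005 had an unadjusted p under 0.05 in limma with perifosine.

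The comparison of the combination with perifosine asks what sorafenib changed when given with perifosine, and the labels give no order of the drugs. None of the 48 genes was called, against 2.2% of all genes, 0.976% lower and 1.22% higher. In the fit of the 9587 brighter genes none was called either, against 3.67% of them. The values nonetheless lay mostly higher: 37 were above 0 and 11 below, with a median of 0.22 against 0.00 for all genes. In 18 genes all combination arrays lay above all perifosine arrays and in 2, CDC25A and SPC25, all lay below, against 12.8% and 10.3% of all genes. Among the 9587 brighter genes, 1780 lay above and 1394 below in this way. The 18 were CCNB1, CCNB2, CDC25B, CDC25C, NEK2, KIF2C, KIF14, KIF18A, KIF20A, KIF20B, KIF23, KIF4A, CENPA, CENPF, NUF2, NUSAP1, TOP2A and FOXM1. A dimmer probe overlapped between these groups for CDC25C, NEK2, KIF18A, NUF2 and FOXM1, but not for KIF23, CENPA and NUSAP1. The largest changes were 0.73 (SE 0.22, adjusted p = 0.141) for TOP2A, 0.61 (SE 0.22, adjusted p = 0.239) for CENPF and 0.61 (SE 0.27, adjusted p = 0.389) for KIF18A. Next came KIF20B at 0.51, CCNB1 at 0.50, NEK2 at 0.47, TTK at 0.44 and HMMR at 0.43, with adjusted p from 0.222 to 0.704. Of the genes that lay lower, CDC25A had a value of -0.49 (SE 0.15, adjusted p = 0.14) and SPC25 one of -0.42 (SE 0.26, adjusted p = 0.592). Dimmer probes gave -0.43 for CDC25A and 0.05 for SPC25. CDK1, AURKA and FOXM1 had values of 0.37, 0.28 and 0.23, while BUB1, CDC20 and CENPE lay at 0.08, 0.16 and 0.20, and KIF11 and PLK1 at -0.01 and -0.02. Without the 3 arrays that stood apart, TOP2A at 0.52 (SE 0.12, adjusted p = 0.026) and CENPF at 0.49 (SE 0.11, adjusted p = 0.0217) passed. The median of the 48 was then 0.17. Without sorafenib B alone, which is in neither group but adds to the shared estimate of spread, CENPF (adjusted p = 0.0119), NEK2 (adjusted p = 0.0323) and TOP2A (adjusted p = 0.039) passed. Of all genes, 5.57% were called in that fit. Without combination B alone, CDC25A passed at -0.64 (adjusted p = 0.0497), and 1.53% of all genes were called.

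**Figure D3:**
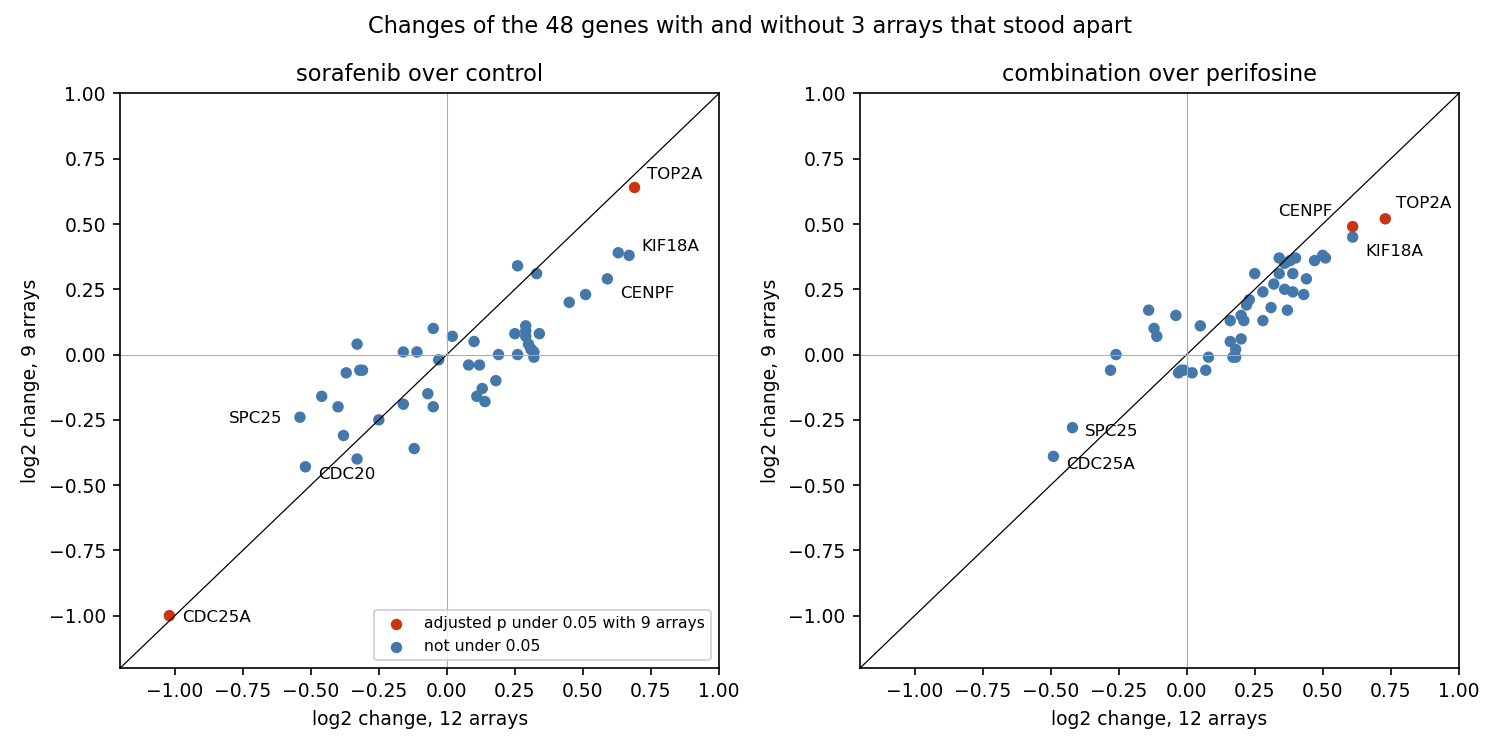
Log2 change of each of the 48 genes with all 12 arrays (horizontal axis) and with 9 arrays, without combination A, sorafenib B and control C (vertical axis), for sorafenib over control and combination over perifosine. The diagonal marks equal values, and red points passed an adjusted p of 0.05 with 9 arrays. CDC25A stays on the diagonal with sorafenib (-1.02 and -1.0), while many other genes lie nearer 0 with 9 arrays.

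The comparison of the combination with sorafenib asks what perifosine changed when given with sorafenib. No gene was called in limma among the 48 or among all 18852, where 643 genes (3.41%) had an unadjusted p under 0.05. Of the 48, 20 lay above 0 and 28 below, with a median of -0.08. Without sorafenib B alone, 37 lay above 0 and 11 below, and the median was 0.08. It was -0.24 without sorafenib A, -0.21 without sorafenib C and 0.03 without the 3 arrays. CDC20 was the single gene of the 48 with all combination arrays above all sorafenib arrays, against 3.98% of all genes, and 0 of the 48 had all of them below, against 3.57%. The change of CDC20 was 0.41 (SE 0.11, adjusted p = 0.999). KIF18A at -0.46, KIF23 at -0.40 and TTK at -0.36 lay farthest below 0, ahead of KIF15 at -0.27, TPX2 at -0.26 and PRC1 at -0.25. CENPA at 0.35, CKS1B at 0.29 and CCNB2 at 0.26 lay farthest above 0 after CDC20. Once the 3 arrays that stood apart were left out, KIF18A lay at -0.28, TTK at -0.13, KIF23 at -0.01, CENPA at 0.05 and CKS1B at 0.06. Of the genes that stand for the roles, CDK1 lay at 0.22, CCNB1 and AURKA at 0.11 each, FOXM1 at 0.10 and PLK1 at 0.05. TOP2A lay at -0.16, CENPE at -0.17, BUB1 at -0.20 and KIF11 at -0.23. CDC25A lay at -0.00, with a 95% interval of -0.32 to 0.32.

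The interaction asks whether the perifosine effect with sorafenib differed from that without it. None of the 48 was called, against 0.0159% of all genes. Their values were above 0 in 35 genes and below in 13, with a median of 0.11 against 0.00 for all genes. The median was 0.32 without sorafenib B (39 above and 9 below), 0.04 without sorafenib A (25 above and 23 below), 0.05 without sorafenib C (26 above and 22 below) and 0.19 without the 3 arrays that stood apart. The largest was CDC20 at 0.68 (SE 0.15, adjusted p = 0.479), followed by CENPA at 0.64, CCNB1 at 0.57, CDC25A at 0.53, FOXM1 at 0.48, CDK1 at 0.48, CCNB2 at 0.45, AURKA at 0.44, NUF2 at 0.43 and MAD2L1 at 0.42. PLK1 lay at 0.31, TOP2A at 0.03, CENPE at -0.09, BUB1 at -0.24 and KIF11 at -0.32. For CDC20 the perifosine effect was 0.41 with sorafenib and -0.27 without it. Its unadjusted 95% interval was 0.35 to 1.01, and 6 of the 48 had an unadjusted p under 0.05 in limma, all above 0, against 4.89% of all genes. An adjusted p that misses the threshold does not show that the effects were alike.

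Other genes of the cell cycle were set beside the 48. Of 56 further mitosis genes, none was called with perifosine (median -0.11, 43 below 0), 1 was lower with sorafenib (median -0.02) and 1 was lower with the combination (median -0.04). ZWINT, a kinetochore protein, averaged 4069 ± 1227 in the sorafenib arrays against 7168 ± 73.3 in the control arrays (SD, n = 3 each), a change of -0.86 (SE 0.18, adjusted p = 0.0333). PKMYT1, the kinase that inhibits CDK1, averaged 3253 ± 532 in the combination arrays against 5486 ± 184 in the control arrays, a change of -0.77 (SE 0.17, adjusted p = 0.0429). The 39 genes of G1/S transition and DNA replication had lower medians than the 48 in all 3 comparisons with control, at -0.33 with the combination, -0.31 with sorafenib and -0.44 with perifosine. Of the 39, 7 fell with the combination, 6 with sorafenib and 3 with perifosine, against 0.7%, 0.928% and 0.0955% of all genes called lower. FEN1, the flap endonuclease of lagging-strand synthesis, had log2 changes of -1.04 with the combination and -1.11 with sorafenib, both called, and of -0.64 with perifosine (adjusted p = 0.0555). CCNE1, cyclin E, had changes of -1.03 with the combination and -1.01 with sorafenib, both called, and of -0.40 with perifosine (adjusted p = 0.322). CDKN1A (p21), the CDK inhibitor, averaged 4631 ± 505 in the combination arrays, 3407 ± 326 in the sorafenib arrays, 13413 ± 1231 in the perifosine arrays and 8081 ± 1197 in the control arrays (SD, n = 3 each). CDKN1A fell with the combination at -0.80 (adjusted p = 0.0149) and with sorafenib at -1.24 (adjusted p = 0.00136), and with perifosine it lay at 0.74 (adjusted p = 0.0542).

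The median SD of log2 intensity over the 48 genes was 0.22 in the combination arrays, 0.48 in the sorafenib arrays, 0.13 in the perifosine arrays and 0.19 in the control arrays, against 0.15, 0.19, 0.11 and 0.15 for all genes. Over the 9587 genes whose log2 intensity averaged 9 or more, as that of all 48 did, the medians were 0.20, 0.33, 0.11 and 0.18 in the same order of groups. In combination A, sorafenib B and control C alike, 20 of the 48 lay above both mates (41.7%), against 16% of all genes and 27% of these 9587 brighter genes. In the same 3 arrays, 9 of the 48 lay below both mates (18.8%), against 12.9% and 20.1%. The 9 were CDC25A, AURKB, CENPM, SPC25, UBE2C, PTTG1, CKS1B, CKS2 and ESPL1. Across the 48 genes, the distances from the mates in these arrays correlated at Pearson's r of 0.74 to 0.81 in the 3 pairs of arrays, against 0.60 to 0.67 across all genes and 0.67 to 0.75 across the 9587 brighter genes. Genes are not independent replicates, and all distances rest on the same 12 arrays. The roles were counted in sorafenib B, where 42.5% of all genes lay above both mates and 38.2% below, or 49.8% and 41.2% of the brighter genes: 10 of 10 kinesins, 5 of 5 spindle assembly genes and 3 of 3 cytokinesis genes lay above both mates, and 4 of 4 genes of anaphase lay below both. The other roles were mixed: 4 lay above and 4 below among 9 genes of the CDK1 switch, 2 above and 3 below among 5 of the centromere and kinetochore, 3 above and 1 below among 5 mitotic kinases, and 4 above and 1 below among 5 of the checkpoint. TOP2A lay above and FOXM1 below.

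The largest upward distances in sorafenib B were 1.43 for HMMR, 1.25 for KIF23, 1.18 for ANLN and 1.15 for TTK. The largest downward distances were -1.82 for UBE2C, -1.42 for CENPM, -1.34 for CKS1B and -1.33 for PTTG1. In all, 13 of the 48 lay over 1 log2 unit from their mates in that array (27.1%), against 8.7% of all genes and 16.9% of the 9587 brighter genes. The perifosine arrays were closer together, and there too most genes lay on one side: in perifosine A 32 of the 48 lay above both mates (66.7%), against 33.6% of all genes, and in perifosine C 35 lay below both (72.9%), against 35.7%.

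**Figure D4:**
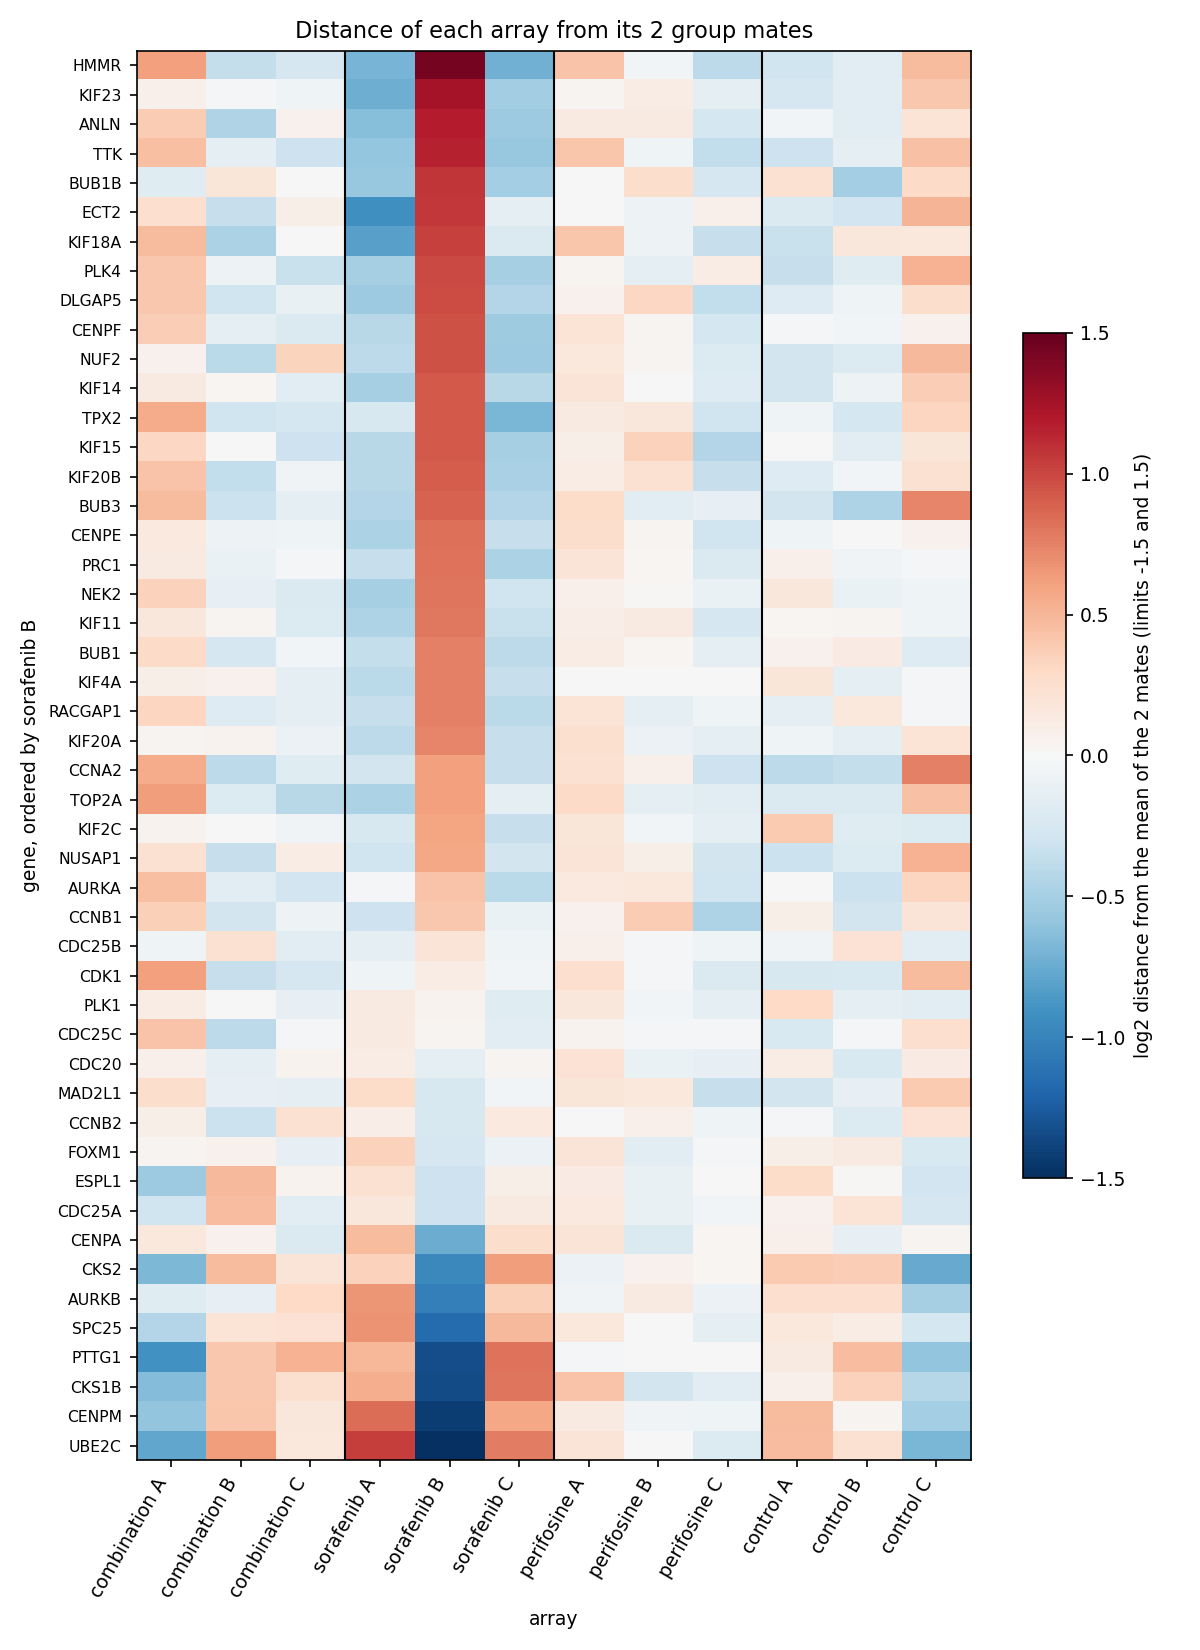
Log2 distance of each array (horizontal axis) from the mean of its 2 group mates, for each of the 48 genes (vertical axis, ordered by sorafenib B). Red is above and blue below the mates, and colours end at 1.5 on either side. In sorafenib B, combination A and control C alike, 20 of the 48 genes are above both mates and 9 below, among these UBE2C, CENPM, CKS1B, PTTG1, SPC25, AURKB and CKS2.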

How the data were processed

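HD-MyZ cells were profiled on 12 Illumina beadchip arrays, 3 per group, grouped by the sample titles. Per the labels' protocols, biotinylated cRNA was made from column-cleaned total RNA, and per the submitters' processing notes BeadStudio was used. The deposited values are intensity on a linear scale, normalized by the authors in a way that no source used here states. Their sorted columns differ by at most 2.35% between arrays. A further table has 24 columns (12 of signals) whose names match no label, and it was not used.

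Of 48803 probes, 28098 had 1 gene symbol, 13 had several and 20692 were unnamed in the platform annotation. For each of 18852 genes the brightest probe by mean log2 intensity was kept. Log2 of the deposited intensity was fitted with 4 group means in limma 3.58.1 in R 4.3.3 (residual degrees of freedom 8, prior 3.52), and nothing was normalized again, background-corrected or filtered. The 6 contrasts were tested two-sided, with Benjamini-Hochberg adjustment over all genes of a contrast. The fit was tested on simulated data with independent noise, which leaves out the shared deviation of combination A, sorafenib B and control C.

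Members, lists, tests and alternatives were chosen with earlier results of these data known. Named were all called members, then the largest changes up to 10 per comparison, and CCNB1, CDK1, CDC25A, AURKA, PLK1, CDC20, BUB1, KIF11, CENPE, TOP2A and FOXM1 throughout. Other members with values were named after these were seen. Of the other lists, called mitosis genes and CDKN1A were named by rule, and FEN1 and CCNE1 after their values were seen. Of the 48 genes, 23 had more than 1 probe, and the sign of change was the same for 20 to 25 of their 28 dimmer probes, depending on the comparison. Deviations of same-lettered arrays from their group means correlated at -0.67 to 0.62, which does not settle whether the letters A, B and C pair arrays. Promoters came from RefSeq, build GRCh38.p14, chromosome 8 left out.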

Additional observations from a re-analysis of the deposited data

How the results depend on the processing

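Each comparison was refitted under 20 or 21 alternatives, which gave 125 counts of called members. Of these, 110 lay within 1.5 times the value reported and 15 differed, and no direction of a called gene was reversed. The 110 include every fit of the combination against sorafenib and of the interaction, with 0 members called. Of all genes, 0 and 1 to 15 were called there, so agreement could hardly fail. A count could also stay while its genes changed, as with sorafenib without combination A, sorafenib B and control C. The 15 are among the counts below. With perifosine against control, 1 member (CDC25A) instead of 0 was called with array weights, with the mean of all probes of a gene, and without combination A, sorafenib B and control C. In these fits 1.85%, 0.281% and 1.55% of all genes were called. With sorafenib against control, 0 instead of 2 were called when only the arrays of those 2 groups entered the fit, 1 with normexp background correction, and 1 to 2 when single arrays were left out. Of all genes, 0.053% were called in the fit of those 2 groups and 1.24% with normexp. The count was 1 (CDC25A) without control A, B or C or sorafenib B or C. In the same order, 0.939%, 0.589%, 0.859%, 3.02% and 1.69% of all genes were called. Leaving out the 3 arrays gave 2, CDC25A and TOP2A, against 4.65% of all genes. CDC20 was lost in 8 of 21 alternatives, with adjusted p of up to 0.184. Array weights gave 3, against 6.63% of all genes. For the combination against perifosine, the count was 1 (CENPF) in the fit of those 2 groups, 4 with array weights (CCNB2, CDC25A, CENPF and TOP2A) and 2 without the 3 arrays. In these fits 4.47%, 6.93% and 6.92% of all genes were called. Leaving out single arrays gave 0 to 3, with 3 (CENPF, NEK2 and TOP2A) without sorafenib B and 1 (CDC25A) without combination B. Of all genes, 5.57% and 1.53% were called in these 2 fits. The combination against control kept 1 called member, CDC25A, in all 21 alternatives, with adjusted p of at most 0.0414. Over these alternatives 0.472% to 6.26% of all genes were called. The interaction median was 0.32 without sorafenib B, against 0.11. With the letter as replicate block the counts were 1 for the combination, 2 for sorafenib, 0 for perifosine and 0 elsewhere, as without it. Whether the letters pair arrays is not known, so the block is given for completeness. Counts over all genes moved more: with perifosine 11 to 349 genes were called, against 56, and with sorafenib 10 to 1249, against 425. For the combination against control 89 to 1181 were called, against 343, and against perifosine 215 to 1306, against 414. The causes of these differences were not tested. If no background was subtracted, as the lowest intensities point to, changes are understated. This would hold most for dim genes and, among the 48, for the dimmest, whose lowest value was 1430.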
